A study of Schizosaccharomyces pombe with 15 samples.

Results

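The stress protection genes of fission yeast (Schizosaccharomyces pombe) examined here are 9 genes chosen by name from the reference annotation: tpx1, ctt1, gpx1 and gst2 (peroxide), tps1 and ntp1 (trehalose), gpd1 (glycerol), hsp9 (heat) and cta3 (ions). They are 9 of the 5095 protein-coding genes that could be compared with the deposited peak lists. A peak of chromatin immunoprecipitation sequencing was counted for a gene when its summit lay between 1000 bp upstream and 200 bp downstream of the annotated transcript start, called the promoter window. The lists are 4, with 1 each for Atf1, Pcr1, Deb1 and Orc1, and every protein was precipitated through a FLAG tag with the same anti-FLAG antibody. All strains are h90 ade6-M210 leu1-32 ura4-D18. The Atf1 strain carries atf1-3xFLAG-hph and the Pcr1 strain pcr1-3xFLAG-hph, and in both the cenH repeat of the mating-type region is replaced (CenH{delta}::9xtetO-ura4). The Deb1 strain carries deb1-3xFLAG-hph and the Orc1 strain orc1::5xFLAG-orc1-kan, and the labels of both list no change at cenH. All cells, controls included, were grown in rich medium at 32 °C and spent 2 hours at 18 °C before fixation, and no list comes from cells without that shift. The labels tie 1 untagged sample to the Atf1 list and 2 inputs each to the Deb1 and Orc1 lists, and name no control for Pcr1. Each protein has 2 samples of 1 strain but only 1 list, so no value below has a replicate, an SD or a test, and the read depth per sample is unknown.

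Fission yeast answers peroxide, osmotic, heat and cold stress through the Sty1 kinase, which phosphorylates Atf1. Atf1 pairs with Pcr1, both of them bZIP proteins of the ATF/CREB family, and the pair binds ATF/CRE sites with the core TGACGT. Genes that remove peroxide, build compatible solutes such as trehalose and glycerol, pump ions or protect proteins are among the known targets of this pathway. Deb1 also binds DNA. Orc1 belongs to the complex that recognises replication origins.

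Atf1 and Pcr1 peaks were present at nearly every one of these genes. An Atf1 summit lay in the promoter window of 9 of 9 genes, against 26.3% of the 5095 protein-coding genes. A Pcr1 summit lay in the window of 8 of 9, all but gst2, against 20.6% of all genes. Both summits were present at 8 of 9, against 17.6% of all genes. Deb1 had a summit at tpx1, ctt1, tps1 and cta3, which is 4 of 9 against 6.22% of all genes. Orc1 had one at gpx1, gst2, gpd1 and hsp9, also 4 of 9, against 15.7% of all genes. This count fell to 2 of 9, gpx1 and hsp9, for peaks of fold at least 3 or of −log10 q at least 10. The share of all genes at these limits is not given here. The Orc1 summits that remained lay 847 bp upstream of gpx1, on a tRNA gene, and 891 bp upstream of hsp9, nearer to the start of ski7. The 9 genes were chosen by name with earlier results of these data known, so these counts are a description and carry no test. None of the 9 held both a Deb1 and an Orc1 summit, as did 1.57% of all genes, so that 0 of 9 is near the background. Atf1, Pcr1 and Deb1 summits stood together at 4 of 9 genes and at 3.98% of all genes. Atf1, Pcr1 and Orc1 summits stood together at 3 of 9 and at 4.91% of all genes. Of the 895 genes with both an Atf1 and a Pcr1 summit, 203 also had a Deb1 summit and 250 an Orc1 summit. Among the 8 stress protection genes with both, these were 4 and 3, and the 3 of 8 with Orc1 is near that share. The gene ntp1 held summits of Atf1 and Pcr1 alone.

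**Figure D1:**
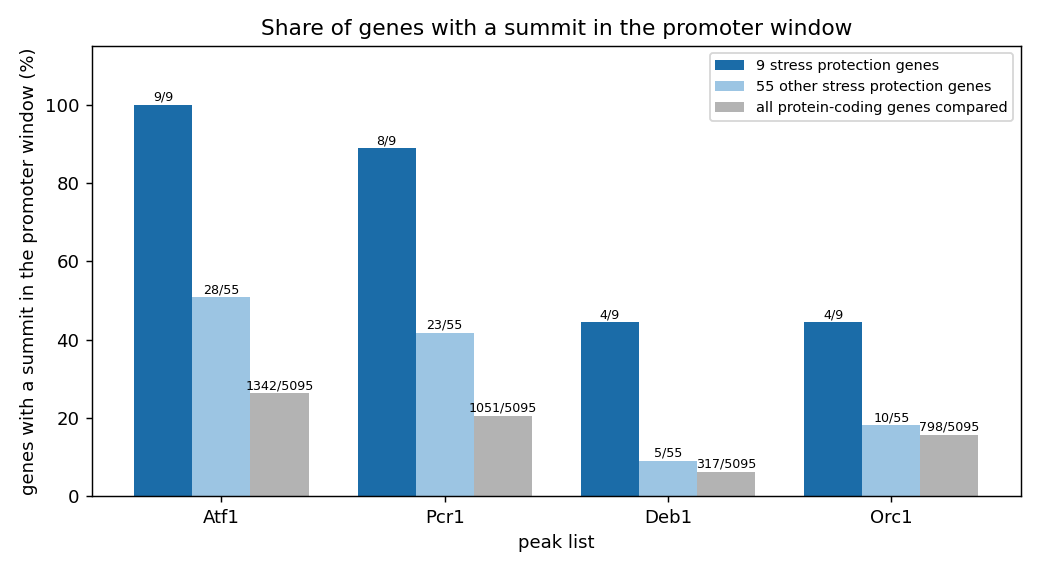
Share of genes (y axis, percent) with a summit in the promoter window, for each of the 4 lists (x axis). Dark bars are the 9 stress protection genes, light bars 55 other stress protection genes and grey bars all 5095 genes, with counts above the bars. The dark bar is the highest in each list, from 9 of 9 for Atf1 to 4 of 9 for Deb1 and Orc1.

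At most of these genes the highest Atf1 and Pcr1 peaks were also high ones of their lists. Fold enrichment here is the ratio that the authors' peak caller gave to each peak, and it is compared only within a list. The highest Atf1 peak of each gene had a fold of 2.49 to 5.24 with a median of 4.21 over the 9 genes. Over all 1342 genes with an Atf1 summit the median of the highest fold was 2.44, and the list of 1995 peaks reached 5.90. For Pcr1 the 8 genes with a peak spanned 3.28 to 6.08 with a median of 5.13, where all 1051 genes with a summit had a median of 2.64 and the list of 1567 peaks reached 6.82. An Atf1 peak of fold at least 3 stood at 7 of 9 genes, against 7.54% of all genes, and the exceptions were gst2 and ntp1. A Pcr1 peak of fold at least 3 stood at 8 of 9, against 7.95% of all genes. The Deb1 folds, from 3.41 to 6.10, lay around the Deb1 median of 4.35, and the highest Orc1 fold per gene, from 1.62 to 4.81, lay on both sides of the Orc1 median of 2.21. Of the 4 Deb1 peaks, that of cta3 alone lay above the upper quartile of its list, which is 5.34.

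**Figure D2:**
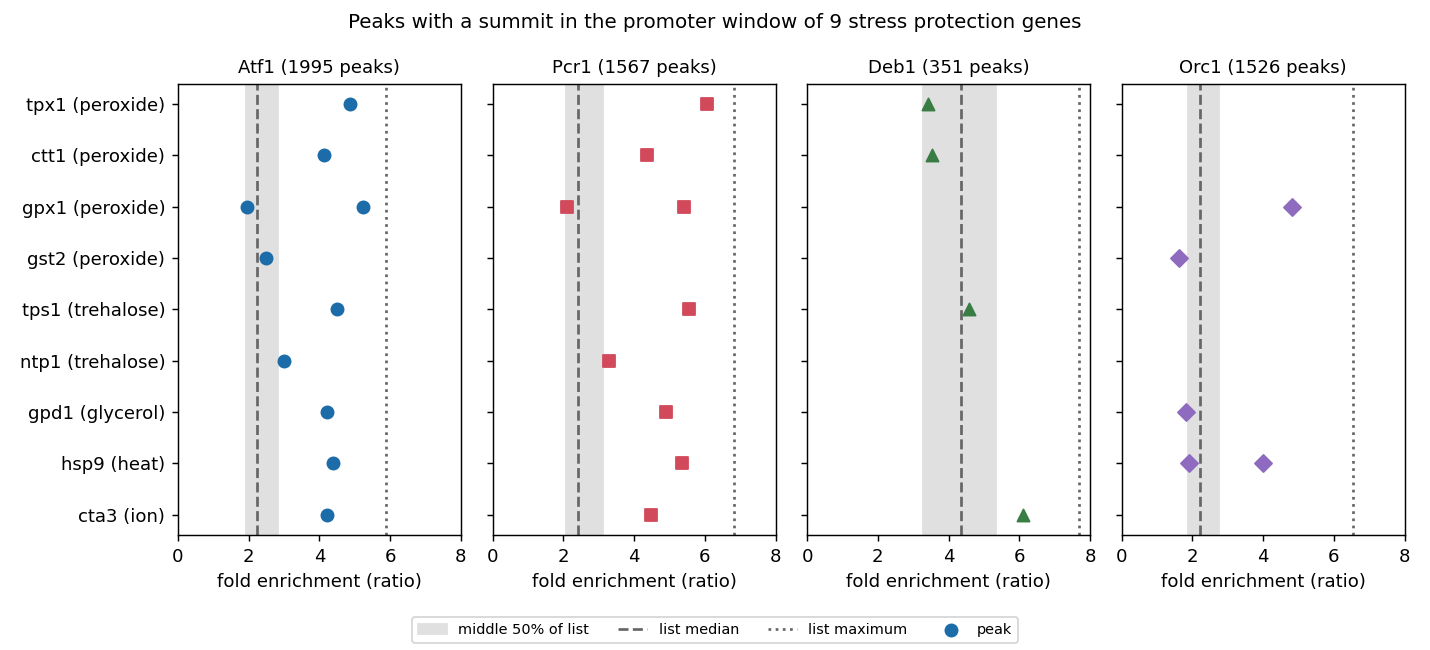
Fold enrichment (x axis, ratio) of every peak with its summit in the promoter window of the 9 genes (rows), in 1 panel per list. The grey band is the middle 50% of the list, the dashed line its median and the dotted line its maximum. Atf1 and Pcr1 points lie mostly right of the band, up to 5.24 and 6.08, and Deb1 points lie in or near it except for cta3 at 6.10.

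**Figure D3:**
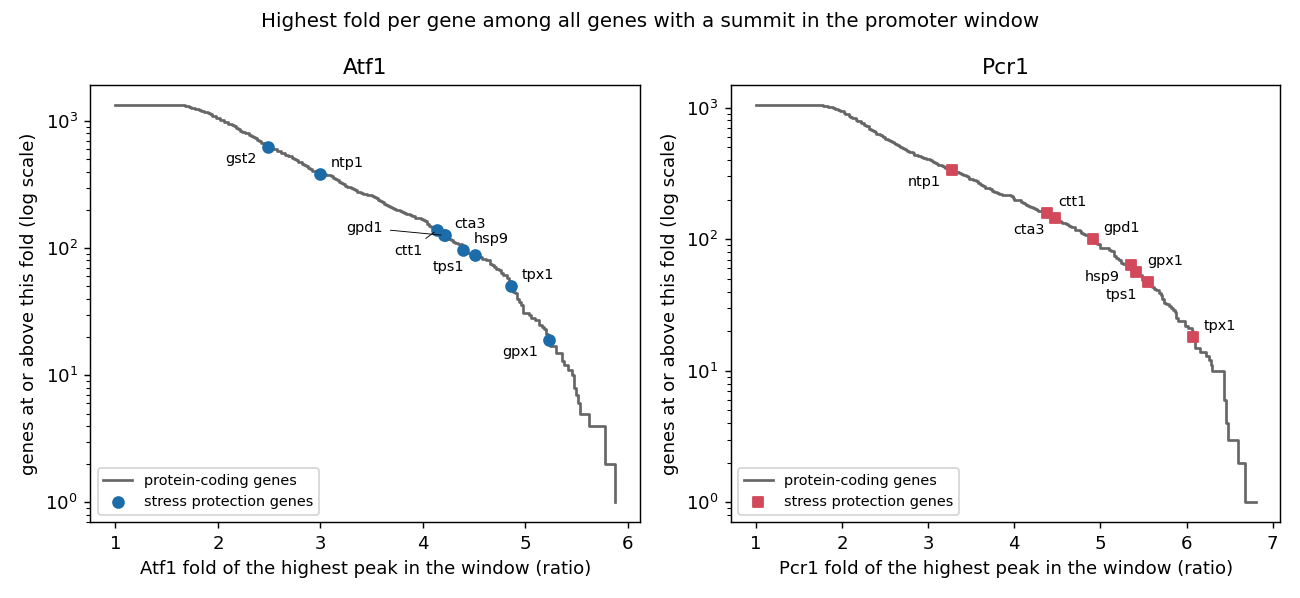
Number of protein-coding genes (y axis, log scale) whose highest Atf1 (left) or Pcr1 (right) peak in the promoter window reaches the fold on the x axis, with the stress protection genes as points. The Atf1 points run from gst2 at 2.49 to gpx1 at 5.24, which is rank 19 of 1342 genes with a summit, and the Pcr1 points from ntp1 at 3.28 to tpx1 at 6.08, rank 18 of 1051.

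Among the peroxide genes, tpx1 encodes a peroxiredoxin that removes hydrogen peroxide and passes its signal on. It lies on the minus strand of chromosome 3 (2084942 to 2085719, assembly ASM294v3). Its Atf1 peak (2085276 to 2086254) had a fold of 4.86 and its Pcr1 peak (2085247 to 2086204) a fold of 6.08, the highest Pcr1 value of the 9 genes. A Deb1 peak of fold 3.41 (2085707 to 2085985) lay within both. The summits were 114 bp (Atf1), 143 bp (Pcr1) and 192 bp (Deb1) upstream of the start, in non-coding genes annotated there (SPNCRNA.1259 and SPNCRNA.1260). They also fell in the window of the neighbour bxi1, but tpx1 had the nearer start. No TGACGT stood within the promoter window of tpx1, so the 200 bases from 260 to 61 bp upstream, which hold all its summits, are printed without capitals (chr3:2085780-2085979, minus strand).
tpx1: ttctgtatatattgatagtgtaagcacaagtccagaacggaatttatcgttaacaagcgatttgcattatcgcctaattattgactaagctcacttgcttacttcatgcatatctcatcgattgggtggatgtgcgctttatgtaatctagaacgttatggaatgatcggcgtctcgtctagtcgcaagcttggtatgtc

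A second set of peaks lay past the 3′ end of tpx1. Atf1 (2.64-fold), Pcr1 (2.99-fold) and Deb1 (5.10-fold) summits stood 1381, 1427 and 1387 bp downstream of the start, within the non-coding gene SPNCRNA.1258. Deb1 had its higher fold at this place and Atf1 and Pcr1 theirs at the promoter.

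The catalase gene ctt1 lies on the minus strand of chromosome 3 (56654 to 58833). It carried an Atf1 peak of fold 4.14 (58394 to 59389), a Pcr1 peak of 4.38 (58706 to 59312) and a Deb1 peak of 3.53 (58882 to 59145). The Atf1 summit was 143 bp upstream, the Deb1 summit 250 bp and the Pcr1 summit 372 bp. The last of these fell in the untranslated part of cox14, the gene upstream of ctt1. Atf1 and Pcr1 summits were 229 bp apart, a distance reached by 8.08% of the 1263 overlapping pairs of Atf1 and Pcr1 peaks in the lists, whose median gap was 35 bp. Wider peaks can overlap with summits further apart, which this share does not allow for. The 1 TGACGT of the window was centred 57 bp upstream, 86 bp from the Atf1 summit and 315 bp from that of Pcr1. It is printed in capitals with its flanks (chr3:58876-58905, minus strand).
ctt1: tattgtgcaaataTGACGTtggtaattcta

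The glutathione peroxidase gene gpx1 lies on the minus strand of chromosome 2 (2788863 to 2789587), right of the mating-type region, where the lists' positions run higher than those of the annotation and a fixed number of bases was subtracted from them to find the window. Its Atf1 peak of fold 5.24 (list position 2801318 to 2802396) was the highest Atf1 peak of the 9 genes and ranked 18 of 1995. The Pcr1 peak there (2801274 to 2802366) had a fold of 5.42. The summits stood 27 bp (Atf1) and 47 bp (Pcr1) upstream of the start. A second, narrow pair of peaks of 97 and 102 bp lay 812 bp (Atf1, 1.96-fold) and 841 bp (Pcr1, 2.12-fold) upstream, on the threonine tRNA gene SPBTRNATHR.07. An Orc1 peak of fold 4.81 (2802511 to 2802854), rank 19 of 1526, had its summit on the same tRNA gene, 847 bp upstream of gpx1. All summits on the tRNA gene also fell in the window of the neighbour gtb1, but gpx1 had the nearer start. The Orc1 summit was 6 bp from that of the narrow Pcr1 peak, and the Orc1 peak did not overlap the high pair at the start. The gene gpx1 thus had high Atf1 and Pcr1 peaks at its start and a high Orc1 peak on a tRNA gene further upstream.

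The 300 bases from 250 bp before to 49 bp after the start of gpx1 hold no TGACGT. They hold TTACGTAA, an 8-base palindrome that the bZIP factor Pap1 of fission yeast is known to bind, centred 116 bp upstream, 89 bp from the Atf1 and 69 bp from the Pcr1 summit (chr2:2789538-2789837, minus strand, capitals mark the palindrome). Between it and the start, 67 bp upstream, stands TGATGTCA, which differs by 1 base from the full ATF/CRE palindrome TGACGTCA and lies 40 bp from the Atf1 and 20 bp from the Pcr1 summit.
gpx1: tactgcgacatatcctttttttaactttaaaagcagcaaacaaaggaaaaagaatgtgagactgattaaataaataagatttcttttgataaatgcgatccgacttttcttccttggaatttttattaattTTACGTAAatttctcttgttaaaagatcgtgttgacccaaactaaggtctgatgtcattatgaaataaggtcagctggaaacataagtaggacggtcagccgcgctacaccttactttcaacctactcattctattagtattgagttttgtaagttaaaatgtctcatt

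The glutathione S-transferase gene gst2 (minus strand of chromosome 3, 2294617 to 2296105) had the weakest bZIP signal of the 9. Its Atf1 peak (2296993 to 2297130) reached 2.49-fold and ranked 734 of 1995, with a summit 950 bp upstream, close to the far edge of the window. The −log10 q of that peak was 9.02, while the highest Atf1 peak of each of the others had 34.3 (ntp1) to 60.3 (tpx1). No Pcr1 peak lay in the window, and the nearest outside had its summit 2837 bp upstream (2.68-fold). An Orc1 peak of fold 1.62 (2296129 to 2296307), rank 1417 of 1526, stood 130 bp upstream. Higher Orc1 peaks had their summits within the gene, 959 bp (2.42-fold) and 1428 bp (3.06-fold) downstream of the start, the latter in an interval that reached past the gene's end. The hexamer TTACGT, in capitals on its other strand, was centred 957 bp upstream, 7 bp from the Atf1 summit (chr3:2297048-2297077, minus strand).
gst2: taaagctaacaagACGTAAtgcttctttca

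Of the trehalose genes, tps1 encodes trehalose-phosphate synthase and ntp1 the neutral trehalase that breaks the sugar down. The gene tps1 lies on the plus strand of chromosome 1 (3479149 to 3481305). It had an Atf1 peak of fold 4.51 (3477862 to 3478695), a Pcr1 peak of 5.55 (3478023 to 3478629) and a Deb1 peak of 4.58 (3478279 to 3478520). The summits lay within 25 bp of each other at 728, 725 and 750 bp upstream, the Deb1 position being the midpoint of its interval because the deposited offset points outside it. They fell in the 3′ untranslated region of dbl4, the upstream gene on the same strand, and in the non-coding SPNCRNA.529. The place was thus far from the tps1 start, with tps1 still the gene of nearest start. No TGACGT stood in the window of tps1, and a TTACGT was centred 684 bp upstream, 44 bp from the Atf1 and 41 bp from the Pcr1 summit. The 300 bases from 850 to 551 bp upstream are shown because all summits lie there, with the hexamer in capitals (chr1:3478299-3478598, plus strand).
tps1: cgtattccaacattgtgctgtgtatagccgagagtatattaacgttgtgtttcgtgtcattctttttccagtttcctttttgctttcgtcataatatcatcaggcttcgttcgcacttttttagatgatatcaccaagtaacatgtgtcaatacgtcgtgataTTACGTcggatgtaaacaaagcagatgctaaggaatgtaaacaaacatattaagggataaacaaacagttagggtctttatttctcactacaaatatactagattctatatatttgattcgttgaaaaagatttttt

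The gene ntp1 lies on the plus strand of chromosome 2 (206581 to 209641). Its Atf1 peak (206120 to 206831) had a fold of 3.00, given as 2.999 in the list and so just under the limit of 3, and ranked 418 of 1995. Its Pcr1 peak (206186 to 206747) reached 3.28-fold and ranked 358 of 1567. The summits stood 82 bp (Atf1) and 41 bp (Pcr1) upstream of the start, in SPNCRNA.1327, and enclosed the position of a TGACGT centred 66 bp upstream, 16 bp from the Atf1 and 25 bp from the Pcr1 summit (chr2:206500-206529, plus strand, capitals mark the core on its other strand). A second core, 700 bp upstream, lay in no peak. The nearest Orc1 summit was 4377 bp upstream of the start and the nearest Deb1 summit 78901 bp downstream.
ntp1: gtcaggtagactACGTCAttgagtaacgaa

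The glycerol-3-phosphate dehydrogenase gene gpd1, needed to make glycerol in high osmolarity, lies on the plus strand of chromosome 2 (4035566 to 4037342), also right of the mating-type region. Its Atf1 peak (list position 4047362 to 4047953) had a fold of 4.21 and its Pcr1 peak (4047398 to 4047938) a fold of 4.91. The summits were 95 bp (Atf1) and 64 bp (Pcr1) upstream. A weak Orc1 peak of fold 1.83 (4047475 to 4047733) overlapped both, with its summit 178 bp upstream. Further summits stood inside the coding region of gpd1, for Atf1 (2.61-fold, 539 bp downstream of the start) and Pcr1 (2.46-fold, 534 bp, and 1.87-fold, 1000 bp) lower than at the promoter. An Orc1 summit there (594 bp downstream) had a fold of 1.92, close to the 1.83 of the promoter, in an interval that ran past the end of the gene.

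The window of gpd1 was the only one of the 9 with both TGACGT and TTACGTAA. A TTACGTAA was centred 168 bp upstream, a TGACGT 120 bp upstream and a second TGACGT, read on the other strand, 71 bp upstream. The last is part of TTACGTCA, which differs by 1 base from the full palindrome and lay 23 bp from the Atf1 and 8 bp from the Pcr1 summit. The 300 bases around the start are printed with these words in capitals (chr2:4035316-4035615, plus strand).
gpd1: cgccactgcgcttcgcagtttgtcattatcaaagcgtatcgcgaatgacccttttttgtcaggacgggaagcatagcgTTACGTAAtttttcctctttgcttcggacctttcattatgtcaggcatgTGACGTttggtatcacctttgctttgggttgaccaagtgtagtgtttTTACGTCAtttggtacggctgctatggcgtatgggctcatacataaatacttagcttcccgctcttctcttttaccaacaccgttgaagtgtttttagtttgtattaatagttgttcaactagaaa

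The heat shock gene hsp9, whose product is related to Hsp12 of Saccharomyces cerevisiae, lies on the minus strand of chromosome 1 (5319957 to 5320676). Its Atf1 peak (5319658 to 5321500) had a fold of 4.39 and covered 1843 bp, the whole gene and its upstream region, and only 9 of 1995 Atf1 peaks were as wide. Its Pcr1 peak (5320169 to 5321504) had a fold of 5.35 and covered 1336 bp. The Atf1 summit was 83 bp upstream and the Pcr1 summit 707 bp upstream, the latter also in the window of ski7 but nearer to the start of hsp9. Their distance of 624 bp was reached by 16 of the 1263 overlapping pairs of the lists (1.27%). Peaks of the median widths, 264 bp for Atf1 and 250 bp for Pcr1, cannot overlap at this distance. The share thus also reflects how wide the hsp9 peaks are. Whether these wide intervals hold more than 1 site was not tested. Orc1 peaks stood at both places, 1 of fold 1.90 (5320585 to 5320851) with its summit 86 bp upstream, 3 bp from that of Atf1, and 1 of fold 3.99 (5321296 to 5321723) with its summit 891 bp upstream, 184 bp from that of Pcr1. The second, rank 77 of 1526, was nearer to the start of ski7 (814 bp) than to that of hsp9. Another Orc1 peak, of fold 3.37, lay 786 bp downstream of the start, past the gene. The Orc1 folds were thus higher on either side of hsp9 than at its start.

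The window of hsp9 held no TGACGT and no TTACGTAA. TTACGT was centred 109 bp upstream, 26 bp from the Atf1 summit, and 208 bp upstream, and AGGGG, the core of the stress response element of Saccharomyces cerevisiae, was centred 174, 389 and 543 bp upstream. The 300 bases around the start show the TTACGT words in capitals, on either strand (chr1:5320627-5320926, minus strand).
hsp9: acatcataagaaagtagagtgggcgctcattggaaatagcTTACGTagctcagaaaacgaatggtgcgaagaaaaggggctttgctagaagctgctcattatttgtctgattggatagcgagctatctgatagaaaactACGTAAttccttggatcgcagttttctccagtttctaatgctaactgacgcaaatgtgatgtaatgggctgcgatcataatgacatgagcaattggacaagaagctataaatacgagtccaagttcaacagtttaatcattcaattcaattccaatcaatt

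The gene cta3, which encodes a P-type ATPase that moves cations out of the cell, lies on the plus strand of chromosome 2 (607233 to 611989), left of the mating-type region. It carried the highest Deb1 peak of the 9 genes, of fold 6.10 (606269 to 607228), rank 44 of 351. The Atf1 peak (606253 to 607522) had a fold of 4.20 and the Pcr1 peak (606281 to 607233) a fold of 4.48. Atf1 and Pcr1 summits stood 212 and 195 bp upstream and the Deb1 summit 305 bp upstream, all in the non-coding genes SPNCRNA.319 and SPNCRNA.4797. The Deb1 and Pcr1 intervals nearly coincided, with 948 bp in common. An Orc1 peak of fold 1.91 had its summit 313 bp downstream of the start and so outside the window.

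The Deb1 peak of cta3 enclosed 3 copies of GGTAACA, centred 767, 565 and 545 bp upstream. This word was found earlier in these same data as the one in excess at Deb1 summits, so its presence under a Deb1 peak is not independent of that finding. GGTAACA stood at least once in the window of 715 of 5095 genes, and 4 of 5095 genes held 3 or more copies. The copies were 240 to 462 bp from the Deb1 summit. The nearer pair is printed first, in capitals on the other strand (chr2:606656-606700, plus strand), followed by the 300 bases around the start (chr2:606983-607282, plus strand), whose capitals mark a TTACGTAA centred 163 bp upstream, 49 bp from the Atf1 and 32 bp from the Pcr1 summit.
cta3 pair: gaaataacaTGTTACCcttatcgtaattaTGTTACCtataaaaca
cta3 start: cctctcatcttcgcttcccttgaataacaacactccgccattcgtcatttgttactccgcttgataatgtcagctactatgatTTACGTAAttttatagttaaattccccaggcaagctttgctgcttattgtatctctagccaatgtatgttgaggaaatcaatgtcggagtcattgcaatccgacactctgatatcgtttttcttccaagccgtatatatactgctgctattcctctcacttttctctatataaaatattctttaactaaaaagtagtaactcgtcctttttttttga

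**Figure D4:**
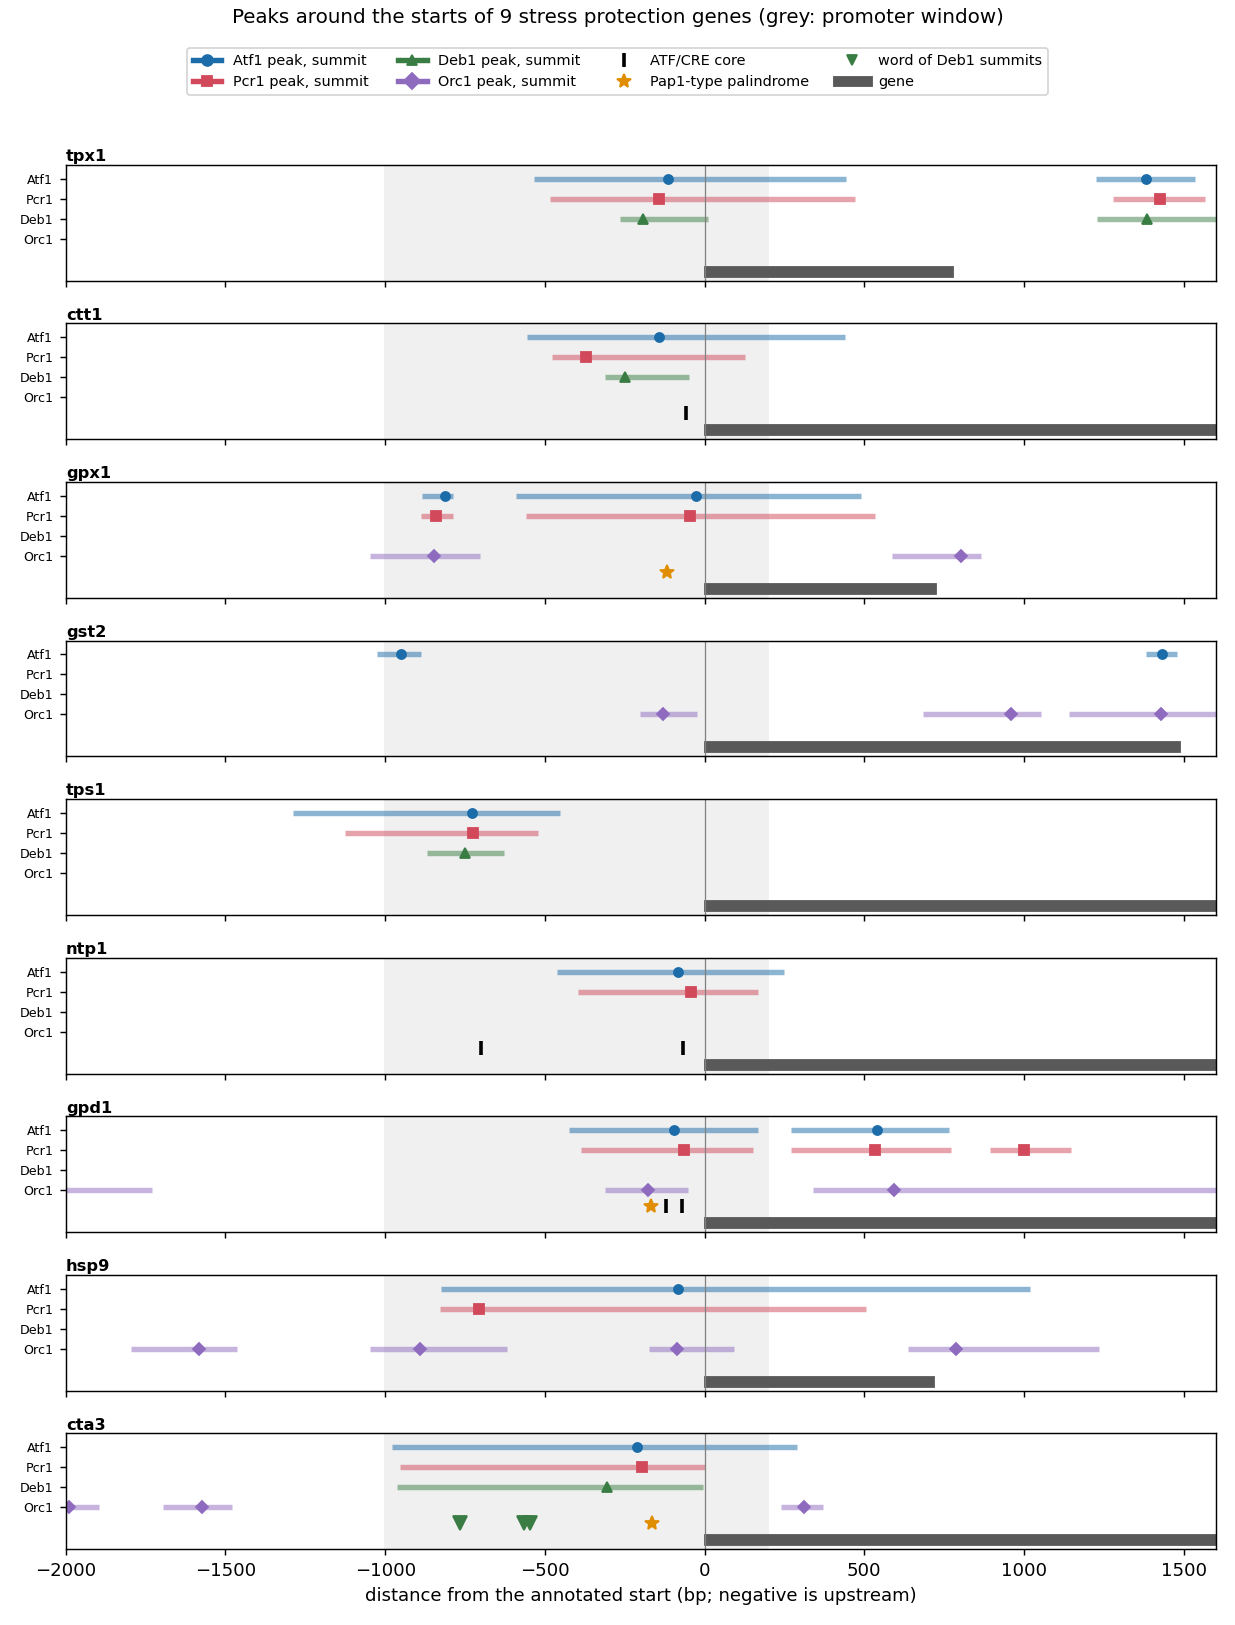
Peaks of the 4 lists around the 9 genes, 1 panel per gene, by distance from the annotated start (x axis, bp). Coloured bars are peak intervals and symbols their summits, grey shading is the promoter window and marks below are sequence words of that window. Atf1 and Pcr1 summits coincide within 50 bp at the start-proximal peaks of tpx1, gpx1, ntp1, gpd1 and cta3 and upstream of tps1, and stand apart at ctt1 (229 bp) and hsp9 (624 bp).

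The summit of the highest Atf1 peak was within 250 bp upstream of the start at 7 of 9 genes, with tps1 (728 bp) and gst2 (950 bp) as exceptions, and at 46.6% of the 1342 genes with an Atf1 summit. For Pcr1 this was so at 5 of 8 genes and at 43.5% of the 1051 with a Pcr1 summit. None of the 28 peaks at the 9 genes had its summit in coding sequence, against 12.9% of the 3206 peaks with a summit in the window of any gene. An annotated non-coding gene held 22 of the 28 summits (78.6%), against 53.9% of the 3206. Peaks of different lists often overlapped, and all 4 summits of hsp9 lay in the same non-coding genes. The 28 are thus not independent, and these shares carry no test. The start of the stress protection gene was the nearest coding start for 27 of the 28, the exception being the Orc1 peak between hsp9 and ski7. Atf1 peaks were wide, with a median of 979 bp for the highest of each gene, against 303 bp over all genes with an Atf1 summit. Pcr1 peaks had a median of 780 bp against 273 bp. The gst2 Atf1 peak, of 138 bp, was narrower than the median of its list (264 bp). In 6 of the 8 genes with both, the high Atf1 and Pcr1 summits were within 50 bp of each other, and at most 41 bp apart. This was so within 50 bp for 61.4% of all overlapping pairs, weak ones included, so the 6 of 8 is near the background.

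The words under the summits differed between the genes. A word was counted as within 100 bp of a summit only when all its bases lay within that distance. TGACGT, on either strand, stood within 100 bp of an Atf1 or Pcr1 summit at ctt1, ntp1 and gpd1, so 3 of 9. Of the 1498 genes with an Atf1 or Pcr1 summit in the window, 16.8% had it at that distance from one. Summits of both proteins, which give more sequence to search, were present at 895 of the 1498 and at 8 of the 9. The promoter window of 3 of 9 genes held TGACGT, against 17.0% of all genes. The full palindrome TGACGTCA was in none of the 9 windows and in 0.628% of all windows. TTACGTAA stood in 3 of 9 windows, those of gpx1, gpd1 and cta3, against 1.43% of all windows. All 3 copies lay between 250 bp upstream and 50 bp downstream of the start, where 24 of 5095 genes (0.471%) held it. At each of the 3 genes an Atf1 or Pcr1 summit was within 100 bp of it, which was so at 14 of the 1498 genes with a summit of either protein (0.935%). Of the 24 genes with TTACGTAA near the start, 11 had an Atf1 summit in the window.

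The shorter TTACGT, a word added after these sequences had been seen, is contained in TTACGTAA. It stood within 100 bp of an Atf1 or Pcr1 summit at gpx1, gst2, tps1, gpd1, hsp9 and cta3, so at 6 of 9, and at 315 of the 1498 genes with a summit of either protein. One or the other of TGACGT and TTACGT was present there at 8 of 9 genes and at 33.2% of the 1498, and the gene without either near its summits was tpx1. A TTACGT of ctt1 was centred 99 bp from the Pcr1 summit but lay partly beyond 100 bp, so it was not counted. Because TTACGT was added after seeing these genes, the 8 of 9 is not independent of them. TTACGT is common, in 40.1% of all promoter windows. The heat shock word GAANNTTC was in 1 of 9 windows, that of tpx1, against 40.8% of all windows, and AGGGG was in 4 of 9 against 39.3%. A match gives letters near a summit and does not show that a protein bound them.

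Nearest to the upstream edge of the promoter window, on its inside, lay the gst2 Atf1 summit (950 bp upstream, 2.49-fold), the second Orc1 summit of hsp9 (891 bp, 3.99-fold) and the far gpx1 summits of Orc1, Pcr1 and Atf1 (847, 841 and 812 bp). The nearest summits outside were the cta3 Orc1 summit (313 bp downstream, 1.91-fold) and, over 300 bp past the downstream edge, the Pcr1 and Atf1 summits in the coding region of gpd1 (534 and 539 bp downstream, 2.46-fold and 2.61-fold). The last of these genes had higher summits of both proteins inside the window.

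A list of further genes of the same kinds of protection held 55 genes with an entry in the annotation, and 1 name (ena1) was dropped because the annotation does not hold it. An Atf1 summit stood in the window of 28 of 55 (50.9%) and a Pcr1 summit at 23 of 55 (41.8%), with both at 22. Deb1 had a summit at 5 (9.09%) and Orc1 at 10 (18.2%). Of all genes, 26.3% had an Atf1, 20.6% a Pcr1, 6.22% a Deb1 and 15.7% an Orc1 summit. The Deb1 and Orc1 shares were thus near the background. The peroxide and redox genes had Atf1 at 12 of 22 and Pcr1 at 11 of 22. The highest were trx1, a thioredoxin gene (Atf1 5.19-fold, Pcr1 5.16-fold), srx1, the sulfiredoxin gene that repairs oxidised peroxiredoxin (4.94-fold and 5.16-fold), and zwf1, the glucose-6-phosphate dehydrogenase gene that supplies NADPH (4.89-fold and 5.76-fold). No summit of any list stood in the windows of sod2, gst1, gcs1, gcs2, grx4, grx5, pgr1, mxr1 or ccp1.

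Deb1 summits among the redox genes were at bcp1 (4.87-fold), trx2 (2.94-fold), zwf1 (2.28-fold) and trx1 (1.67-fold), and Orc1 summits at trx2 (3.94-fold), bcp1 (2.96-fold), obr1 (2.85-fold) and grx1 (1.84-fold). The genes trx2 and bcp1 held summits of all 4 proteins, as did 1.22% of all genes. None of the 9 did, which is near that share. The glycerol genes gut2, encoding a mitochondrial glycerol-3-phosphate dehydrogenase (Atf1 5.52-fold, Pcr1 6.60-fold), and gld1, encoding a glycerol dehydrogenase (4.84-fold and 5.98-fold), had high folds, as did gpd1. The paralogue gpd2 had no summit of any list, and the only Deb1 summit of the group was at fps1 (3.47-fold). The dihydroxyacetone kinase gene dak2 had Atf1 at 2.36-fold without Pcr1, and dak1 had none.

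Trehalose genes other than tps1 and ntp1 had low folds, with Atf1 at 2.1-fold for tps3 and 2.02-fold for tps2, and no summit at tpp1, which encodes the trehalose-phosphate phosphatase. Among ion genes, 2 of 8 had an Atf1 summit, sod22 (2.42-fold) and nhe1 (1.68-fold), a share close to the 26.3% of all genes. None of the 8 had a Deb1 or Orc1 summit, against 6.22% and 15.7% of all genes, which is near the background for so few genes. The heat genes had Atf1 at 9 of 16 and Pcr1 at 8 of 16. They were led by hsp16, a small heat shock protein gene (Atf1 5.47-fold), and the Hsp70 genes ssa2 (4.61-fold, Pcr1 5.80-fold) and ssa1 (4.37-fold, Pcr1 4.77-fold). Orc1 summits stood at hsp104 (2.07-fold), hsp90 (2.22-fold), ssa2 (1.70-fold), aha1 (2.82-fold) and hsp3102 (2.52-fold). No heat gene had a Deb1 summit, which is near the 6.22% of all genes.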

How the data were processed

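The samples are chromatin immunoprecipitations and inputs, 15 in 8 groups by their titles. Bowtie 1.2.3, MACS2 2.1.2 and bedtools were used per the submitters' processing notes. The genome build and the use of controls are not given in the sources used here. Each of the 4 deposited lists gives per peak a fold enrichment (a ratio), the −log10 of a q-value, a score and a summit offset, all the authors' values. The deposited score was 10 times the −log10 q, rounded down, in all 5439 records. Depth per sample is unknown.

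Summits were the interval start plus the offset, or the midpoint where the offset points outside the interval (129, 113, 93 and 109 peaks of Atf1, Pcr1, Deb1 and Orc1). Genes and sequence come from RefSeq assembly ASM294v3. Its chromosome 2 ends at 4539804, and peaks reach 4551989. Right of list position 2160000, 12220 bp were subtracted to set summits against genes. Of 245 bZIP summits there with a fold of 2.5 or more, 24.1% had TGACGT within 40 bp after subtraction and 1.22% without it. Printed peak positions are those of the lists, and 18 genes near the mating-type region were left out. Window assignment and word search were tested on simulated data. Python 3.11.15 and pandas 2.3.3 were used.

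Named were every gene of the 9, their peaks, the nearest peak outside the window, overlapped neighbours and, of the further genes per class, the 3 of highest Atf1 fold and those with Deb1 or Orc1. Other further genes in the text were named after their values were seen. The genes, lists and words were chosen with earlier results of these data known. Samples without a list were not analysed here.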

Additional observations from a re-analysis of the deposited data

How the results depend on the processing

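Of the counts over the 9 genes, those for Atf1 (7 to 9), Pcr1 (6 to 8), both together (6 to 8) and Deb1 (3 to 4) stayed within 1.5 times their value under each alternative tried. These were windows of 500 bp upstream to 100 bp downstream and 2000 bp to 200 bp, interval midpoints, interval overlap in place of summits, a −log10 q of at least 10, a fold of at least 3, no subtraction on chromosome 2 and, added after seeing the data, leaving out midpoint summits. The Orc1 count moved from 4 to 2 at a −log10 q of at least 10 and at a fold of at least 3, both of which drop gpd1 and gst2, and to 2 with no subtraction, which drops gpx1 and gpd1. The narrow window drops tps1 from Atf1, Pcr1 and Deb1, gst2 from Atf1, hsp9 from Pcr1 and gpx1 from Orc1. The wide window adds cta3 to Orc1, which brings that count to 5. The shares of all genes at these settings are not given here, apart from those for Atf1 and Pcr1 at a fold of at least 3. The ranges thus do not show how the contrast with all genes moves. Genes with TGACGT near a summit numbered 3, 2 within 50 bp, 0 with the palindrome TGACGTCA and 6 with TTACGT, added after seeing the data. No paired analysis was possible because each protein has 1 list, which also leaves no replicate to leave out.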

Other observations

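The other genes with 3 copies of GGTAACA in the promoter window also had a Deb1 summit there. They were named after their values were seen. They are gma12, which encodes a galactosyltransferase of the Golgi (Deb1 5.40-fold, summit 970 bp upstream), SPCC24B10.18 (3.53-fold, 16 bp upstream) and pas1, which encodes a cyclin (2.35-fold, 10 bp upstream). With cta3 (6.10-fold) these are all 4 such genes, and a Deb1 summit stood in the window of 188 of the 715 genes (26.3%) with at least 1 copy. The word was itself found at Deb1 summits.

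At hsp16 the lack of a Pcr1 summit came from the edge of the window. The Atf1 summit lay 932 bp upstream, and an overlapping Pcr1 peak of fold 5.98 had its summit 1306 bp upstream, 374 bp from it.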
